A study of Mus musculus with 6 samples.

Results

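Leukocyte integrin RNA was followed through 6 genes in tumors of mice given sulindac sulfide (SS) or control treatment. The genes were the 4 alpha subunits Itgax (CD11c), Itgam (CD11b), Itgal (CD11a) and Itgae (CD103) and the 2 beta subunits Itgb2 (CD18) and Itgb7. They were chosen by exact gene symbol, and make up 6 of the 13730 genes and 10 of the 20648 transcripts of the count table. The set had been selected on the difference between SS and control in these same tumors, so that the values of the 6 genes are given as a description, and nothing is read from a test of them. Each tumor came from C0321 cells, a mouse triple-negative breast cancer (TNBC) line of mesenchymal type that was derived from a Lunatic Fringe (Lfng) knockout tumor and is a single line, so that controls and treated tumors shared its genotype. The cells were placed in the mammary fat pad of female FVB mice aged 6 to 10 weeks, which keep their own immune system. The 3 SS mice received daily oral doses of 60 mg/kg over 14 days, and the 3 control mice received saline by the series description, while the paper speaks of a vehicle. The sample labels spell the drug as a sulfate. Whole-tumor RNA was sequenced, which holds RNA of tumor cells and of host cells alike, and the study gated tumor leukocytes by the proteins CD11c and CD11b, which is the question that the integrin RNA addresses.

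Integrins are receptors for adhesion that are built from 1 alpha and 1 beta subunit, and neither reaches the cell surface alone. The beta subunit CD18 pairs with CD11a to form LFA-1, with CD11b to form Mac-1, with CD11c to form CR4 and with CD11d (Itgad), while the beta subunit Itgb7 pairs with CD103 or with Itga4. LFA-1 is found on most leukocytes and binds ICAM proteins, Mac-1 marks monocytes, macrophages and neutrophils, CD11c marks dendritic cells and many tissue macrophages, and CD103 marks T cells held in epithelia and a class of dendritic cells through its ligand E-cadherin.

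Library totals ran from 12314368 to 24441522 counts among the controls and from 8468914 to 13696665 among the SS tumors. Values are CPM, counts scaled to a common library size with TMM factors, and 3 counts correspond to 0.123 to 0.354 CPM. Control tumor 1 stood apart from the other controls. Its summed adipocyte markers were at 447 CPM against 38.0 and 14.9 CPM in controls 2 and 3, its summed T and NK cell markers at 99.0 CPM against 24.9 and 19.0 CPM, and its Krt5, a basal keratin, at 73.1 CPM against 1.13 and 1.44 CPM. SS tumors 1 to 3 had Krt5 at 33.9, 26.7 and 0 CPM and summed adipocyte markers at 105, 256 and 48.6 CPM. The Krt5 log2 fold change of SS against control was -0.30 with control tumor 1 and 3.96 without it. A fit without control tumor 1 thus sets SS tumors 1 and 2, which held these markers, against controls that held little of them. For other genes and lists that turn on control tumor 1, values without it are given where they are described. The RNA of the hormone receptor Esr1 was low in each tumor, at 4.48 to 6.40 CPM, beside 417 to 544 CPM for the keratin Krt8. Nothing beyond the numbering of the tumors says that replicates were handled separately, so that p-values measure the spread between these 6 samples.

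Itgax, the CD11c subunit, was the integrin gene of the set with the clearest separation of the groups. It lies on the plus strand at chr7:128129568-128150657 (GRCm38). Control tumors 1 to 3 held 66.9, 49.4 and 50.9 CPM, against 173, 131 and 89.6 CPM for SS tumors 1 to 3, and later triplets keep this order. Every SS tumor lay above every control tumor, and the SS tumors spread widely, from SS tumor 3 just over the controls to SS tumor 1. The group means were 55.7 CPM ± 9.66 and 131 CPM ± 41.6 (SD, n = 3 each), a 2.36-fold higher level under SS and a log2 difference between the groups of 1.24, whose standard error (SE) was 0.24. Without SS tumor 1 the log2 fold change was 0.98 and without SS tumor 3 it was 1.45, and those were the lowest and highest values on leaving out 1 tumor. In bulk RNA, more CD11c cells and more Itgax RNA per cell cannot be told apart.

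Itgad, which encodes the CD11d partner of CD18, is the neighbor of Itgax and shares sequence with it. It was not one of the 6 genes, and it lies at chr7:128173946-128205503 (GRCm38). The controls had 0, 5.18 and 9.01 estimated counts of it, against 27.55, 17.36 and 28.48 under SS. All SS tumors were higher, but from counts so low that 1 control tumor was at 0. Counts of Itgax and Itgad summed to whole numbers, within 0.01, in 6 of 6 tumors, at 846, 1011 and 1250 in the controls and 2410, 1119 and 1088 in the SS tumors. The share of Itgad in this sum was 0%, 0.51% and 0.72% in the controls and 1.14%, 1.55% and 2.62% under SS. Of the 3972 windows of 75 bases in the Itgax transcript, 240 (6.04%) were identical to Itgad, and in no other pair of these genes was a window of 75 bases shared. The longest identical run was 188 bases of coding sequence, in exons 11 to 13 of Itgax at chr7:128135612-128136062 and in exons 12 to 14 of Itgad at chr7:128189340-128189789 (GRCm38, plus strand, spliced). A read from such a run could be assigned to either gene, so the 2 levels are uncertain where they share it. The first 75 bases of the run are shown because a read of that length fits inside them.
shared Itgax and Itgad run: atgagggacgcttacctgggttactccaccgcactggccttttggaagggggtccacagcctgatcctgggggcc
With the counts of Itgad added to those of Itgax, the log2 fold change was 1.26, as large as for Itgax alone. This sum was added after the data had been seen.

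**Figure D1:**
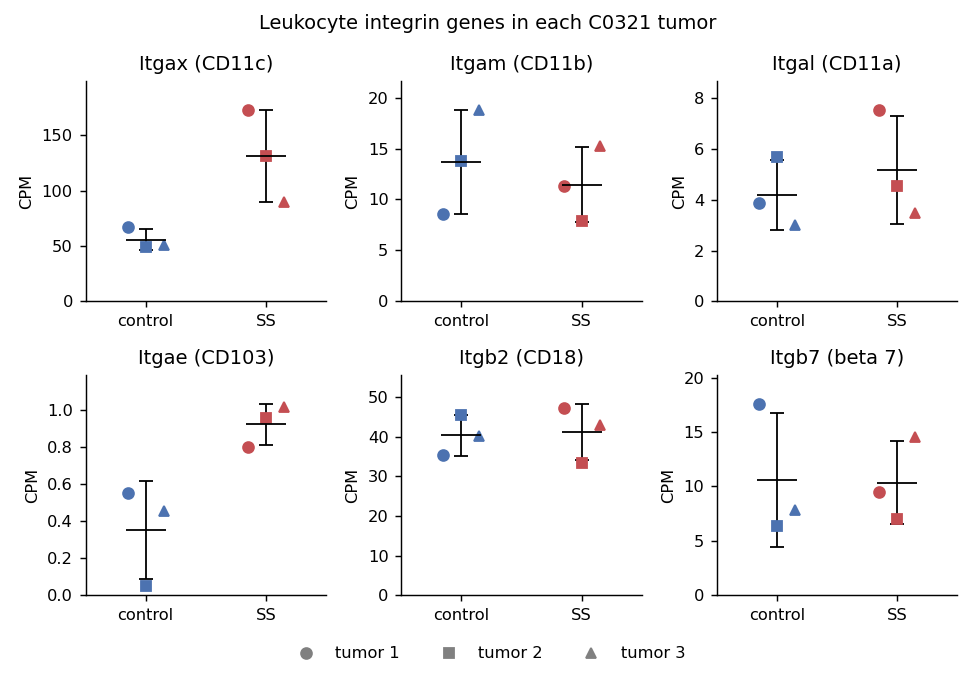
CPM of the 6 integrin genes in each of the 3 control and 3 SS tumors, with a panel and a linear axis from 0 for each gene. Points are tumors, and horizontal lines and whiskers are means and SD. In the Itgax panel the SS tumors (89.6 to 173 CPM) sit above the controls (49.4 to 66.9 CPM). In the Itgae panel they also do, with no value over 1.01 CPM, and the groups overlap in the other 4 panels.

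Itgam, the CD11b subunit, lies on the plus strand at chr7:128062640-128118491, next to Itgax, and the GENCODE gene Gm49368 overlaps it on the same strand, so its counts may be shared. Its values were 8.54, 13.8 and 18.8 CPM for the controls and 11.3, 7.87 and 15.2 CPM in the SS tumors. The groups overlapped, with control tumor 3 the highest and SS tumor 2 the lowest. The log2 fold change was -0.26 (SE 0.34), and it ran from -0.51 without SS tumor 3 to 0.04 without control tumor 3, so that its direction hung on a single tumor. The GENCODE forms of the 2 Itgam transcripts differ inside the coding sequence by 3 bases at the start of exon 14, chr7:128101634-128101636 in GRCm38, which are in capitals in the first of the 2 lines that follow.
Itgam with the 3 bases: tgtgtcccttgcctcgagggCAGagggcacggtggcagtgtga
Itgam without them: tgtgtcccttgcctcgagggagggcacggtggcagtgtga
The share of Itgam counts assigned to the transcript with the 3 bases was 92.2%, 23.9% and 27.5% in the controls and 18.5%, 10.5% and 61.5% in the SS tumors. The shares swung as widely within each group as between them, and control tumor 1 and SS tumor 3 each held the larger part of this transcript. Estimated shares of transcripts this alike are uncertain.

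Itgal, the CD11a subunit that forms LFA-1, lies on the plus strand at chr7:127296260-127335137. Its values were 3.87, 5.70 and 3.0 CPM in the controls and 7.55, 4.53 and 3.46 CPM under SS. SS tumor 1 was above the other 5 tumors and the groups overlapped otherwise. The log2 fold change was 0.31 (SE 0.40), and without SS tumor 1 it was -0.07. Its 4 deposited transcripts belong to 2 GENCODE forms that differ inside the coding sequence by 3 bases at the end of exon 18, chr7:127317364-127317366 in GRCm38, shown in capitals.
Itgal with the 3 bases: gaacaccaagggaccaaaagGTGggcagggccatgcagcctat
Itgal without them: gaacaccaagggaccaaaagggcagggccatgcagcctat
The summed share of the transcripts with these bases was 99.3%, 52.6% and 12.5% in the controls and 23.0%, 12.9% and 54.5% in the SS tumors. This share covered nearly the whole range from 0 to 1 among the controls alone, and the SS tumors lay inside that range.

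**Figure D2:**
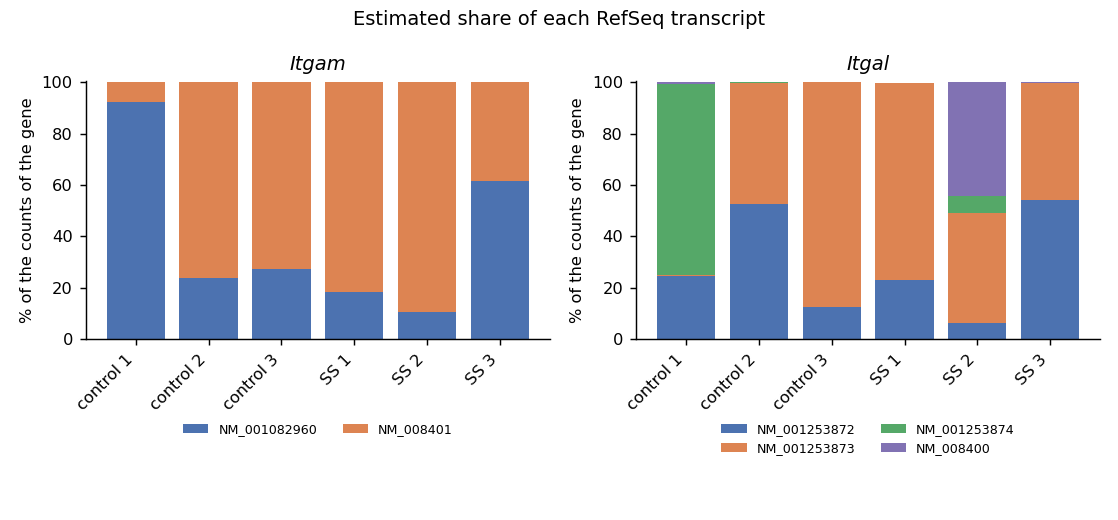
Share in percent of each deposited Itgam transcript (2) and Itgal transcript (4) in the summed counts of its gene, for the 3 control and 3 SS tumors. Each bar is a tumor and the stacked parts are transcripts, and the blue part of Itgam is the one with the 3 extra bases. The largest part changes from tumor to tumor within both groups, as with Itgam in control tumor 1 (92.2% one transcript) and controls 2 and 3 (23.9% and 27.5%).

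Itgae, the CD103 subunit, lies on the plus strand at chr11:73090595-73147449, and it was the gene of the set with the least RNA. Rounded counts were 7, 1 and 11 in the controls and 11, 8 and 12 in the SS tumors, which is 0.55, 0.049 and 0.45 CPM against 0.80, 0.95 and 1.01 CPM. Before rounding, control tumor 2 had 1.28 counts and SS tumor 2 had 8.33, which are not whole although the gene has 1 deposited transcript. All SS tumors lay above all controls, but the gene passed the filter on low counts only through the SS tumors, of which 3 were over the cutoff of 0.769 CPM against 0 of the controls. A gene that enters in this way had to differ, so its log2 fold change of 1.40 (SE 0.79) carries no weight as support. It ranged from 0.87 without control tumor 2 to 1.82 without control tumor 1. The antisense gene Haspin lies within Itgae, and the library was stranded, but whether the counting used strand is not given in the sources used here.

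Of the beta subunits, Itgb2 is CD18 and lies on the plus strand at chr10:77530348-77565674. Its values were 35.3, 45.6 and 40.3 CPM in the controls and 47.4, 33.5 and 43.1 CPM in the SS tumors. The groups overlapped almost fully, with the means at 40.4 CPM ± 5.12 and 41.3 CPM ± 7.11 (SD, n = 3 each). Its log2 fold change was 0.03 (SE 0.17) and lay between -0.08 (without SS tumor 1) and 0.16 (without SS tumor 2) when any 1 tumor was left out, and at -0.05 without control tumor 1. Itgb7 lies on the minus strand at chr15:102215995-102231935 and pairs with CD103 or Itga4. It was at 17.6, 6.34 and 7.84 CPM in the controls and 9.51, 7.03 and 14.5 CPM under SS. Control tumor 1 and SS tumor 3 were the high ones and the groups overlapped. The log2 fold change was -0.02 (SE 0.43), and without control tumor 1 it was 0.55.

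Over all 10902 genes tested with edgeR's quasi-likelihood test, 0 were called after Benjamini-Hochberg adjustment (0%), with a smallest adjusted p of 0.616. Before adjustment 6.36% had a p under 0.05, with 3.19% higher and 3.16% lower under SS. Of the 6 integrin genes, 1, Itgax, had such an unadjusted p, and 0 passed adjustment. Every SS tumor was above every control tumor for 2 of the 6 genes (Itgax, Itgae), against 6.51% of all genes, and below it for 0 of the 6, against 6.4%. The DESeq2 alternative called 37 of 12638 genes (0.293%) after adjustment, with Itgax among them. The 6 genes were chosen on this contrast, so nothing is read from these counts. Their median log2 fold change was 0.17, beside -0.001 for all genes tested.

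**Figure D3:**
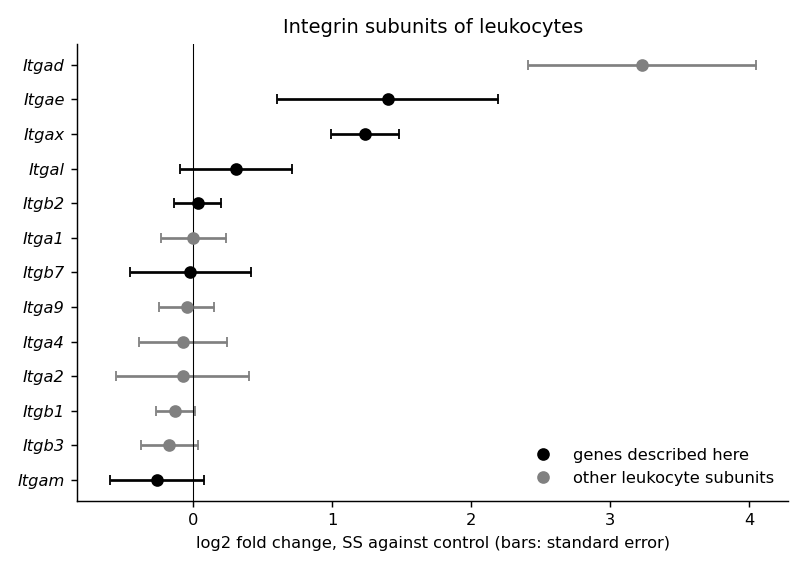
Log2 fold change of SS against control for the 6 integrin genes and for the other integrin subunits of leukocytes. Whiskers are the SE of the edgeR fit over 6 tumors. Itgax (1.24) and Itgae (1.40) lie right of 0, Itgad (3.23) lies furthest right with the widest whisker among the named subunits, and Itgb2 (0.03) and Itgb7 (-0.02) lie at 0.

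Set against its beta subunit, Itgax differed in the same way. The ratio of Itgax CPM to Itgb2 CPM was 1.89, 1.09 and 1.27 in the controls and 3.65, 3.92 and 2.08 in the SS tumors. All SS ratios were above all control ratios, and their means were 1.41 ± 0.424 and 3.22 ± 0.995 (SD, n = 3 each). Set against Ptprc, which encodes the leukocyte protein CD45, the ratio was 1.04, 1.19 and 1.12 in the controls and 2.89, 2.40 and 1.54 under SS. The groups did not overlap here either, so that Itgax was higher for each unit of leukocyte RNA as measured by Ptprc. The ratio of Itgax to Itgam was 7.83, 3.58 and 2.72 in the controls and 15.3, 16.7 and 5.89 under SS. SS tumor 3 fell below control tumor 1 in this ratio, so the groups overlapped. The ratios of Itgam and of Itgal to Itgb2 overlapped too, at 0.242, 0.303 and 0.466 against 0.239, 0.235 and 0.353 for Itgam and 0.110, 0.125 and 0.0744 against 0.159, 0.135 and 0.0804 for Itgal. Itgb2 to Ptprc ran over 0.550, 1.10 and 0.886 against 0.792, 0.612 and 0.740, which overlap. Itgae to its partner Itgb7 was higher in every SS tumor, at 0.0840, 0.136 and 0.0698 against 0.0314, 0.00775 and 0.0576, but rests on 12 Itgae counts or fewer in a tumor. These ratios share the Itgax and Itgb2 values with the levels given above and are no separate evidence.

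**Figure D4:**
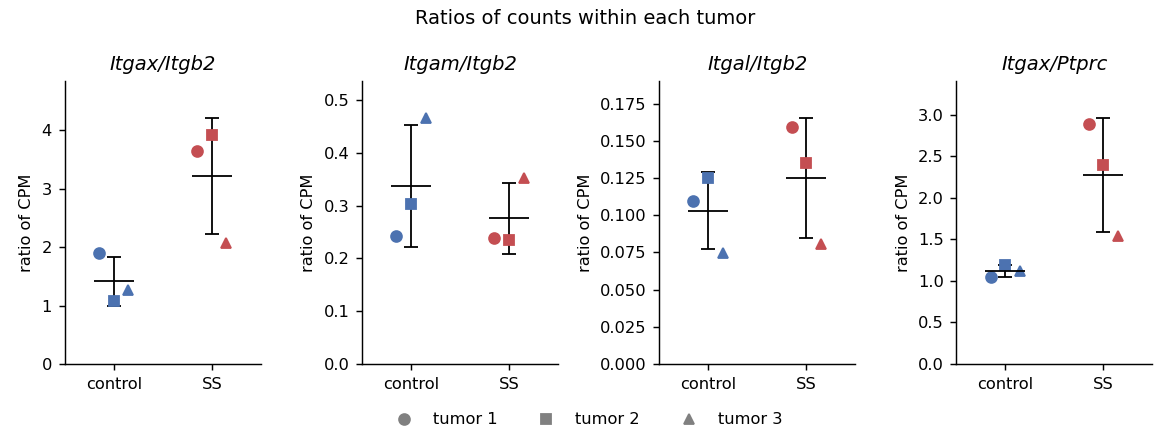
Ratios of CPM for Itgax, Itgam and Itgal to Itgb2 and for Itgax to Ptprc, in each of the 3 control and 3 SS tumors. Points are tumors, and horizontal lines and whiskers are means and SD. In the Itgax to Itgb2 panel the SS tumors lie at 2.08 to 3.92 and the controls at 1.09 to 1.89, and in the panel for Itgam to Itgb2 the groups overlap.

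On a scale that adjusts for transcript length, CPM per kilobase of transcript, Itgax and Itgb2 were alike in the control tumors, at 13.8 ± 2.39 and 13.6 ± 1.72 (SD, n = 3 each). They were followed by Itgb7 at 3.95 ± 2.28 and Itgam at 2.94 ± 1.10, which did not differ beyond their spread, and then by Itgal at 0.804 ± 0.265 and Itgae at 0.0914 ± 0.0693. The order in the SS tumors had Itgax alone at the top, at 32.4 ± 10.3, followed by Itgb2 at 13.9 ± 2.39. Itgb7 at 3.86 ± 1.42 and Itgam at 2.46 ± 0.788 were again within their spread of each other, ahead of Itgal at 0.994 ± 0.406 and Itgae at 0.240 ± 0.0290. The sum of the CD18 partners Itgax, Itgam and Itgal per kilobase, divided by Itgb2 per kilobase, was 1.61, 1.06 and 1.27 in the controls and 2.92, 3.11 and 1.8 in the SS tumors. This ratio lay above the controls in every SS tumor, and Itgax made up most of it. RNA levels per length do not give the ratio of the proteins. Some short transcripts had few counts, as B2m (860 bases) at 1.65 to 3.87 CPM without TMM factors. Division by length would not correct a loss of short transcripts, which was not tested, so the order between genes is uncertain.

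The promoters are shown because Itgax and Itgam are neighbors that are both known as genes of the myeloid line, in which the factor PU.1 binds the motif GAGGAA. The 2 genes are read in the same direction, and Itgam had 11.5 CPM ± 3.67 under SS (SD, n = 3) where Itgax had 131 CPM. RefSeq gave the 250 bases before its own gene start on GRCm38.p6 for 3 of the 6 genes. That start is the deposited one for Itgam and lies 18 bases before the deposited one for Itgax. They were searched on both strands for GAGGAA, for TGTGGT, the core of RUNX sites, and for GGGCGG, a GC box that Sp1 can bind, and in the sequences the matches are in capitals.
Itgam promoter, chr7:128062390-128062639, plus strand: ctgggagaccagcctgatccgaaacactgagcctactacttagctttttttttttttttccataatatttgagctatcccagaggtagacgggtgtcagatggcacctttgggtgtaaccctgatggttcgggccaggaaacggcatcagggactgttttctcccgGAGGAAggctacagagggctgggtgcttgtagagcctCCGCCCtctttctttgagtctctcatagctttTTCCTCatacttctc
Itgax promoter, chr7:128129300-128129549, plus strand: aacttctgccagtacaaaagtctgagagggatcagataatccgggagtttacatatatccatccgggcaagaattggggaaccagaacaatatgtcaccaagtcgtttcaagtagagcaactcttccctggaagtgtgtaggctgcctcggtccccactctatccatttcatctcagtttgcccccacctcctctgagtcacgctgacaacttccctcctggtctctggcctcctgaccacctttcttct
The Itgam window held 2 matches to GAGGAA, 84 to 79 bases before the start on the same strand and 15 to 10 bases before it on the other strand, and 1 match to GGGCGG, 47 to 42 bases before it on the other strand. The Itgax and Itgb7 windows held 0 matches to all 3. Of 32851 mouse promoter windows of this length, 23.3% held GAGGAA, 14.0% held TGTGGT and 32.7% held GGGCGG, so that these letters are common. A window with no match says only that the letters are not in it.

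The genes whose pattern over the 6 tumors was most like Itgax, by the smallest root mean square difference of centered log2 CPM among 7644 genes with a mean of at least 5 CPM, were Fgl2 (difference 0.176), the MHC class I gene H2-Q6 (0.179), the MHC class II gene H2-Ab1 (0.206), Slc29a3 (0.216) and Cacna1a (0.228). H2-Ab1, a chain of the molecule that presents antigen to helper T cells, was at 807, 491 and 669 CPM among the controls and at 1476, 1273 and 976 CPM under SS, with every SS tumor higher. As these genes were picked for following Itgax, their separation of the groups is no separate evidence. H2-Q6 has near-identical copies, so its counts are uncertain. Spi1 ranked 363, Ptprc 695 and Itgam 7205 by the same measure. The genes most like Itgb2 were Rbbp6, Ift122, Notch1, Dpp9 and Lrpprc, at differences of 0.047 to 0.063.

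The lists that follow hold genes of the integrin pathway and of cell types. They share the 6 tumors with the integrin genes, and their tests are edgeR tests adjusted over all 10902 genes. None of these genes passed adjustment, and the smallest adjusted p among them was 0.760. Of the 128 genes tested on all lists, 63 were higher and 65 lower, with a median log2 fold change of -0.005, and 8 (6.25%) had an unadjusted p under 0.05. Without control tumor 1 that count was 34 of 129 listed genes, 26 of them higher under SS, beside 877 of 11228 genes in all (7.81%), and none passed adjustment. Without control tumor 3 it was 4 of 134. In the fit without control tumor 1, genes such as Cd52, Ccl17, Fabp4, Plin1, Pck1, Ltf, Jchain and Epcam passed the filter only through the SS tumors. Those genes had to differ and carry no weight as support.

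Of the other integrin subunits of leukocytes, 7 of 8 were tested, 2 higher and 5 lower, with a median of -0.07. Itgad had a log2 fold change of 3.23 (SE 0.82, adjusted p = 0.760 by edgeR), but it passed the filter only through the SS tumors and shares reads with Itgax. Itgb1, which pairs with many alpha subunits on most cells, was at -0.13, Itgb3 at -0.17 and Itga9 at -0.04. The Itgb7 partner Itga4 was at 5.85, 7.67 and 3.94 CPM in the controls and 5.08, 5.13 and 6.42 CPM under SS, which overlap, at -0.07.

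Of the ligands, 8 of 20 were tested, 3 higher and 5 lower, with a median of -0.13 and 0 with an unadjusted p under 0.05. Icam1, the ligand of LFA-1 and Mac-1, was at 2.06, 1.82 and 4.06 CPM in the controls and 2.69, 2.74 and 1.77 CPM under SS, with a log2 fold change of -0.15. Vcam1, the ligand of integrins that hold Itga4, was at -0.12, and Cdh1, which encodes the CD103 ligand E-cadherin, was at 0.41 with an SE of 0.44. The Mac-1 ligand C3 was at 0.34, Fn1 at -0.20 and Jam3 at -0.72. Without control tumor 1 the list had a median of -0.26, and 3 of the 8 had an unadjusted p under 0.05, namely Cdh1 at 0.93, C3 at 0.63 and Fn1 at -0.37. Icam2 and Madcam1 were not analysed here.

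Inside-out activation is the route by which a leukocyte switches its integrins on, through the small GTPase Rap1 to talin and kindlin-3. Of its 16 genes 14 were tested, 6 higher and 8 lower, with a median of -0.05 and 0 under an unadjusted p of 0.05. Without control tumor 1 the median was 0.07, with 8 higher and 6 lower. Rap1a and Rap1b, the GTPases, were at -0.26 and -0.25, the kinase Stk4 at -0.32, and Apbb1ip, the RIAM adaptor that carries talin to Rap1, at 0.19. Fermt3, which encodes kindlin-3, was at 0.13 (SE 0.12) and Tln1, talin, at -0.07. The 14 genes of outside-in signaling, which carry the signal of a bound integrin into the cell, were split 6 higher and 8 lower, median -0.04, with 0 under that p. The split without control tumor 1 was 7 and 7, median 0.03, with 1 gene under that p, Syk at 0.45. Among them the kinase Syk was at 0.34, the exchange factor Vav1 at 0.44 and Plcg2 at -0.28. The adaptors Tyrobp and Fcer1g were at 0.338 to 1.81 and 1.11 to 2.42 CPM, with transcripts of 564 and 674 bases.

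The 16 transcription factors tested held 10 higher and 6 lower genes, with a median of 0.06, and 2 had an unadjusted p under 0.05. On leaving out control tumor 1 there were 12 higher and 4 lower, a median of 0.12 and 6 genes under that p, 4 of them higher. Spi1, which encodes PU.1, was at 70.5, 68.4 and 63.6 CPM in the controls and 91.9, 77.4 and 86.2 CPM under SS, without overlap, at a log2 fold change of 0.34 (SE 0.11, edgeR adjusted p = 0.771). Sp1 was below the controls in every SS tumor, at -0.30 (SE 0.10, edgeR adjusted p = 0.771). Irf4 was at 0.82, Irf8 at -0.49 and Runx3 at -0.16, with SE of 0.39, 0.24 and 0.36. For Irf4, control tumor 1 at 12.3 CPM lay among the SS tumors, and without that tumor the log2 fold change was 1.41 for Irf4 and 0.09 for Runx3.

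**Figure D5:**
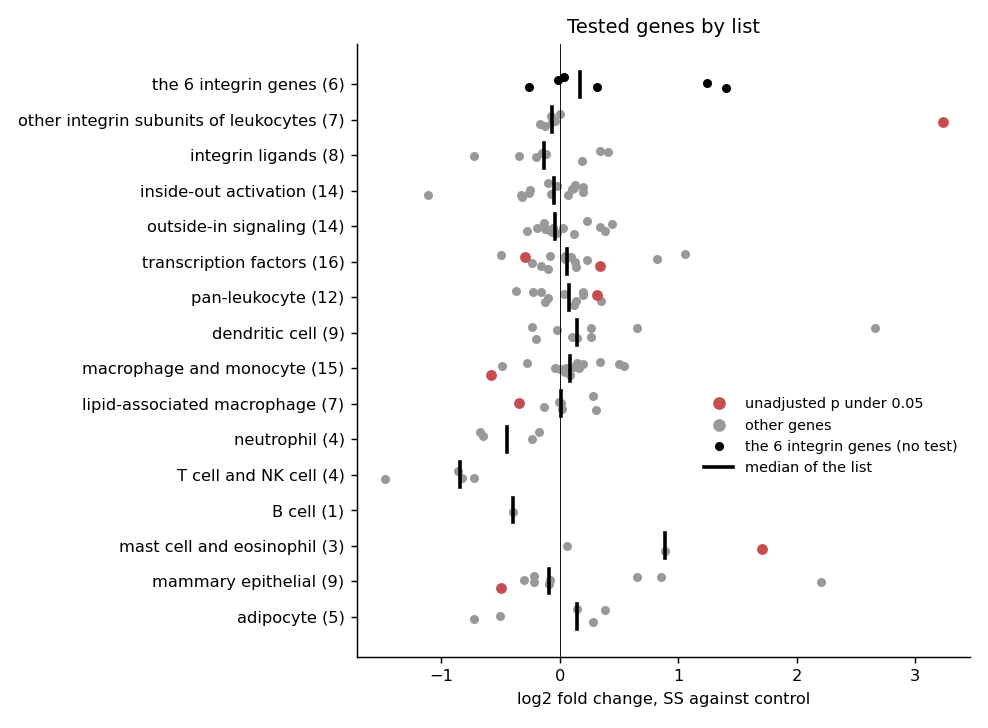
Log2 fold change of SS against control for the tested genes of each list, with the median as a bar. The 6 integrin genes are in black and are not marked by p. Other genes with an unadjusted edgeR p under 0.05 are in red, and the rest in gray. All 6 tumors are used. The medians furthest from 0 are those of the T cell and NK cell list (-0.84) and of the mast cell and eosinophil list (0.89). Without control tumor 1 they would be 0.31 and 0.65, with the adipocyte list at 3.92 in place of 0.14, the only B cell gene at 4.37 in place of -0.40 and the mammary epithelial list at 1.02 in place of -0.10. In that fit some genes, such as Fabp4 and Jchain, passed the filter only through the SS tumors.

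Markers of the cells that such a tumor can hold are given beside the integrin values. Of the pan-leukocyte genes 12 were tested, 7 higher and 5 lower, with a median of 0.07, and their summed level was 1299 to 1544 CPM in the controls and 1416 to 1686 CPM under SS. Ptprc was at 64.2, 41.4 and 45.4 CPM and at 59.8, 54.7 and 58.2 CPM, Hcls1 at a log2 fold change of 0.31, Lcp1 at 0.19 and Was at -0.22. Without control tumor 1 the pan-leukocyte list had 8 of 13 higher, a median of 0.27 and 3 genes under an unadjusted p of 0.05, all higher, against 1 with it, and the log2 fold change of Ptprc was 0.41 in place of 0.20. Among the 3 was Cd52, which was filtered out with all tumors. It passed the filter here only through the SS tumors, with controls 2 and 3 at 0.20 and 0.04 CPM, so it carries no weight as support. Dendritic markers showed 6 of 9 higher, a median of 0.15 and summed levels of 202 to 248 and 212 to 263 CPM. The dendritic chemokine Ccl17 was at 2.66 (SE 1.24), from controls at 0.87, 0 and 0.08 CPM, and Cacnb3, Snx22 and Clec10a were at 0.15, 0.26 and 0.65. The defining dendritic factor Zbtb46 was at 1.5, 0.59 and 0.62 CPM in the controls and 0.51, 0.84 and 0.93 CPM under SS, and the receptor Flt3 did not pass the filter and was at 1.34 CPM at most. The dendritic list without control tumor 1 had 8 of 9 higher, a median of 0.32 and 2 genes under an unadjusted p of 0.05, both higher, against 0 with it. Ccl17, 1 of these 2 genes, was then at 5.16. With the remaining controls at 0 and 0.08 CPM it passed the filter only through the SS tumors, so it carries no weight as support. Zbtb46 turned from -0.23 to 0.32 and Clec10a was at 1.08. Ccr7, the homing receptor of migrating dendritic cells and of T cells, named here after its values were seen, turned from -0.03 to 1.5. Whether dendritic cells account for the Itgax level was not tested.

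Macrophage and monocyte markers were 10 of 15 higher with a median of 0.09, and summed to 1097 to 1471 CPM and 1150 to 1396 CPM, so the ranges overlap. With control tumor 1 left out, 6 of the 15 were higher, the median was -0.05, and 4 genes were under an unadjusted p of 0.05, 1 of them higher, against 1 with it. Adgre1, which encodes F4/80, was at 10.7, 10.4 and 11 CPM in the controls and 17.0, 10.0 and 18.2 CPM under SS, with SS tumor 2 below the controls. Cd14 was lower, at -0.59 (SE 0.21, edgeR adjusted p = 0.771), Apoe was at -0.49 (-0.77 without control tumor 1) and Mrc1 at 0.19. Of lipid-associated macrophage genes 4 of 7 were higher, median 0.01, with Cd9 at -0.35, Lgals3 at 0.28, Ctsd at -0.13 and Lpl at 0.31, and summed levels of 398 to 479 and 396 to 432 CPM. Lpl, a lipase that adipocytes also make, was at 156 CPM in control tumor 1 against 28.6 and 13.7 CPM in the other controls, and without that tumor its log2 fold change was 1.94. Lgals3 and Ctsd were then at 0.49 and -0.33, and the list's median was 0.07, with 2 genes under an unadjusted p of 0.05. The 4 neutrophil genes tested, Mmp9, Mmp8, Cxcr2 and Ltf, had log2 fold changes of -0.65, -0.68, -0.24 and -0.18, with a median of -0.44 and sums of 8.99 to 26.3 and 11.9 to 16.1 CPM. The direction of the last pair rested on control tumor 1, without which Cxcr2 was at 0.46 and Ltf at 4.69, the latter against controls at 0.20 and 0 CPM, and the median was -0.17. The 4 T and NK genes had negative values with a median of -0.84. Among the controls, tumor 1 held most of their level, as Cd3e was at 45.8, 12.0 and 7.63 CPM in the controls and at 19.9, 12.6 and 4.06 CPM under SS. Cd3e, Cd247 and Lck were at -0.82, -1.48 and -0.73, and without control tumor 1 at 0.32, -0.60 and 0.30, with 3 of the 4 genes higher and a median of 0.31. Ly6g, Cd8a and Ncr1 were not analysed here.

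The 1 B cell gene tested, Jchain, was at -0.40 (SE 1.56). Its sign was set by control tumor 1 at 4.35 CPM, beside 0.049 and 0.041 CPM in the other controls, and without that tumor the value was 4.37. The mast cell and eosinophil genes Ccr3, Siglecf and Kit were at 1.71, 0.89 and 0.06 (2.26, 0.65 and 0.41 without control tumor 1), with levels under 4 CPM and sums of 3.29 to 7.83 and 5.84 to 6.89 CPM. Mammary epithelial genes were 3 of 9 higher, with a median of -0.10. Krt18 was at 91.8, 98.1 and 80.4 CPM in the controls and 70.0, 59.5 and 61.9 CPM under SS, without overlap (log2 fold change -0.50, SE 0.12, edgeR adjusted p = 0.760). Without control tumor 1, 5 of the 9 were higher, the median was 1.02 and 4 genes were under an unadjusted p of 0.05, 3 of them higher, against 1 with it, and Krt18 was at -0.49. Epcam was at 2.2 (SE 1.25), or 4.35 without that tumor, and Erbb2 and Esr1 at -0.22 each. Adipocyte genes summed to 14.9 to 447 CPM in the controls and 48.6 to 256 CPM in the SS tumors, with log2 fold changes of -0.73 for Plin1, -0.50 for Car3, 0.38 for Pck1 and 0.28 for Lipe. Control tumor 1 was highest in each of these 4, and without it all 5 adipocyte genes tested were higher under SS at an unadjusted p under 0.05, with a median of 3.92 in place of 0.14, 0 of them after adjustment by edgeR. Car3 was then at 2.03 and Lipe at 1.59. For Plin1 the remaining controls were at 0.0983 and 0 CPM, against 8.06, 14.7 and 0 CPM under SS, and for Pck1 both were at 0, against 33.1, 41.5 and 0 CPM. For Fabp4 they were at 0.295 and 0.041 CPM. Plin1, Pck1 and Fabp4 thus passed the filter in this fit only through the SS tumors, so the count of 5 and the median carry no weight as support. What part the makeup of the tumors has in the Itgax values was not tested.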

How the data were processed

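RNA of 6 tumors was measured, 3 per group, with groups and replicate numbers taken from the sample labels. The values deposited by the authors are estimated counts (expected counts) for each RefSeq transcript, not normalized, from stranded polyadenylated libraries read in pairs of 75 nucleotides, and entries with low counts had been removed, so that every row sums to at least 10. The submitters' processing notes name CASAVA 1.8.1, Bowtie2 2.2.5, STAR 2.5.3a and mm10, and the counting tool is not given in the sources used here. Such counting divides reads that match several transcripts, which makes the levels of isoforms and of near-identical genes uncertain.

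The estimated counts were summed by symbol, after 21 symbols held as dates had been restored, and rounded to whole numbers. The fit used edgeR 4.0.16 (R 4.3.3) with its filter on low counts, TMM factors of 0.981 to 1.029, and quasi-likelihood tests adjusted by Benjamini-Hochberg. An SE was taken as the log2 difference over the root of its F value. Starts are those of the deposited table and ends are its stops minus 1, after comparison with GENCODE M21 on GRCm38, which also gave exons and spliced sequence. RefSeq on GRCm38.p6 gave the promoters. The script was tested on simulated data.

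The integrin genes and the lists were chosen with earlier results of these data known. Named are all 6 integrin genes with their transcripts, the 4 genes of each list with the smallest unadjusted p and all under 0.05, fixed marker, ligand and pathway genes, and the 5 genes most like Itgax and Itgb2, except that some genes under this rule are not reported here. Alternatives were other scalings, quantile normalization with limma 3.58.1 (the study names quantile normalization and a t statistic), DESeq2 1.42.0, other filters, thinning, the replicate block and leaving out each tumor. The sum of Itgax and Itgad was added after the data had been seen.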

Additional observations from a re-analysis of the deposited data

How the results depend on the processing

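No alternative moved the log2 fold change of an integrin gene by more than its spread between tumors. Leaving out 1 tumor can hardly shift a group mean that far, so for those fits this says nothing about stability. In sign, leaving out 1 tumor turned Itgam, Itgal, Itgb2 and Itgb7, and Itgb7, at -0.02, was at 0.03 under quantile normalization with limma and at 0.05 with the replicate block. Itgax kept its direction in each, from 0.98 to 1.45 on leaving out 1 tumor and from 1.20 to 1.26 elsewhere. The count of genes past adjustment was 0 in edgeR and limma and 37 in DESeq2, whose own dispersion model and filter differ. The cause was not tested. At an unadjusted p under 0.05 edgeR gave 693 genes, with 520 to 877 on leaving out 1 tumor, and DESeq2 gave 836. Of the listed genes, 8 had such a p, with 4 (without control tumor 3) to 34 (without control tumor 1) on leaving out 1 tumor. The labels tie no number to a shared animal, litter or day. Between tumors of the same number the correlations of their deviations were 0.116, 0.021 and 0.077, with 3 of 6 tumors closest to their own number. These values cannot exclude a pairing, and none was used in the main fit. With the replicate block, 643 genes had an unadjusted p under 0.05, 0 passed adjustment, 9 listed genes were under 0.05, and Itgax was at 1.20. Itgae had no value under the filter of 1 CPM in 3 tumors or after thinning. Depth limits Itgae and Itgad, which had 12 and 28.48 counts at most.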
